A study of Homo sapiens with 12 samples.

Results

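Homologous recombination and Fanconi anaemia repair were described here through a list of 38 genes of these pathways, chosen by name. Of these, 37 were in the count table of 16599 genes, and all 37 passed the filter on low counts that left 15991 genes for testing. RAD51D was not analysed here. The libraries came from H1650 and A549, a pair of established lung cancer lines of human origin, with 3 libraries in each of 4 groups. The groups were H1650 cells over-expressing SRSF2, untreated H1650 cells, A549 cells over-expressing SRSF2 and untreated A549 cells. SRSF2 is a splicing factor of the serine/arginine-rich family, which recognises short sequences in exons and promotes their inclusion. How SRSF2 was expressed, and whether a line was 1 clone or a pool, is not given in the sources used here. The labels call the control cells untreated, while their titles carry the unexplained letters NC. The level of the SRSF2 transcript was not analysed here.

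Homologous recombination mends a broken chromosome by copying an intact sister. The MRE11, RAD50 and NBN complex and RBBP8 start to resect the broken ends, EXO1 and DNA2 extend the resection, and BRCA1, BARD1, PALB2 and BRCA2 act on the exposed strand. The Fanconi anaemia pathway repairs crosslinks between DNA strands: a core complex with the E2 enzyme UBE2T ubiquitinates FANCD2 and FANCI, after which nucleases organised by SLX4 cut the crosslinked DNA. ATM and ATR are the kinases that signal DNA damage and stalled replication, and CHEK1 is the checkpoint kinase downstream of ATR.

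Total counts ran from 23876899 to 32079027 per library, and 3 counts were worth 0.126 to 0.0935 CPM (counts per 1000000 counts) in these libraries. No source used here says that replicates came from separate cultures, and p-values then reflect only the spread between these libraries, which may be technical. The H1650 SRSF2 libraries varied most, with a common biological coefficient of variation of 0.0559 against 0.0338 in untreated H1650, while it was 0.0344 in A549 SRSF2 and 0.0298 in untreated A549 libraries. The tests below took 1 estimate of the spread per gene from all 4 groups together. The spread may thus be understated for the H1650 response and overstated for the A549 response. All 6 epithelial markers were in the table, with a summed level of at least 9325 CPM in each library, while 2 fibroblast markers summed to at most 22.7 CPM. Of the leukocyte markers CD14 was measured, at up to 6.58 CPM, and of the endothelial markers CLDN5, at up to 0.665 CPM.

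In each line taken alone, most of the 37 listed genes were lower in SRSF2 cells than in untreated cells, by modest amounts. Of these genes, 17 were called lower in both lines. In H1650, 25 of 37 genes fell, 1 rose and 11 did not pass the test, so that 70.3% were called, against 62.3% of all genes tested. Of all genes, 31.3% were called lower and 31% higher in H1650. In A549, 22 genes fell, 1 rose and 14 did not pass the test, so that 62.2% were called, against 32.3% of all genes tested. Of all genes, 15.9% were called lower and 16.4% higher in A549. The median log2 fold change of the 37 genes was -0.26 in H1650, where that of all genes was 0, and -0.20 in A549, where that of all genes was 0.0021. A call meant an adjusted p under 0.05 in edgeR's quasi-likelihood test, with Benjamini-Hochberg adjustment over all genes tested, and the same holds for each adjusted p below unless another tool is named.

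The summed level of the 37 genes was 1211 to 1314 CPM in H1650 SRSF2 libraries, against 1469 to 1511 CPM in untreated H1650 libraries. It was 1673 to 1702 CPM in A549 SRSF2 libraries, against 1897 to 1918 CPM in untreated A549 libraries. In both lines every SRSF2 library thus held a lower sum than every untreated library. The sum of 30 genes of G2 phase and mitosis moved with it, at 3201 to 3469 CPM in H1650 SRSF2 against 4365 to 4702 CPM in untreated H1650 libraries. That sum was 4908 to 5062 CPM in A549 SRSF2 against 5794 to 5945 CPM in untreated A549 libraries, and its part in the lower repair genes was not tested. In bulk RNA, fewer cells in a cell-cycle phase and less RNA per cell cannot be told apart.

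**Figure D1:**
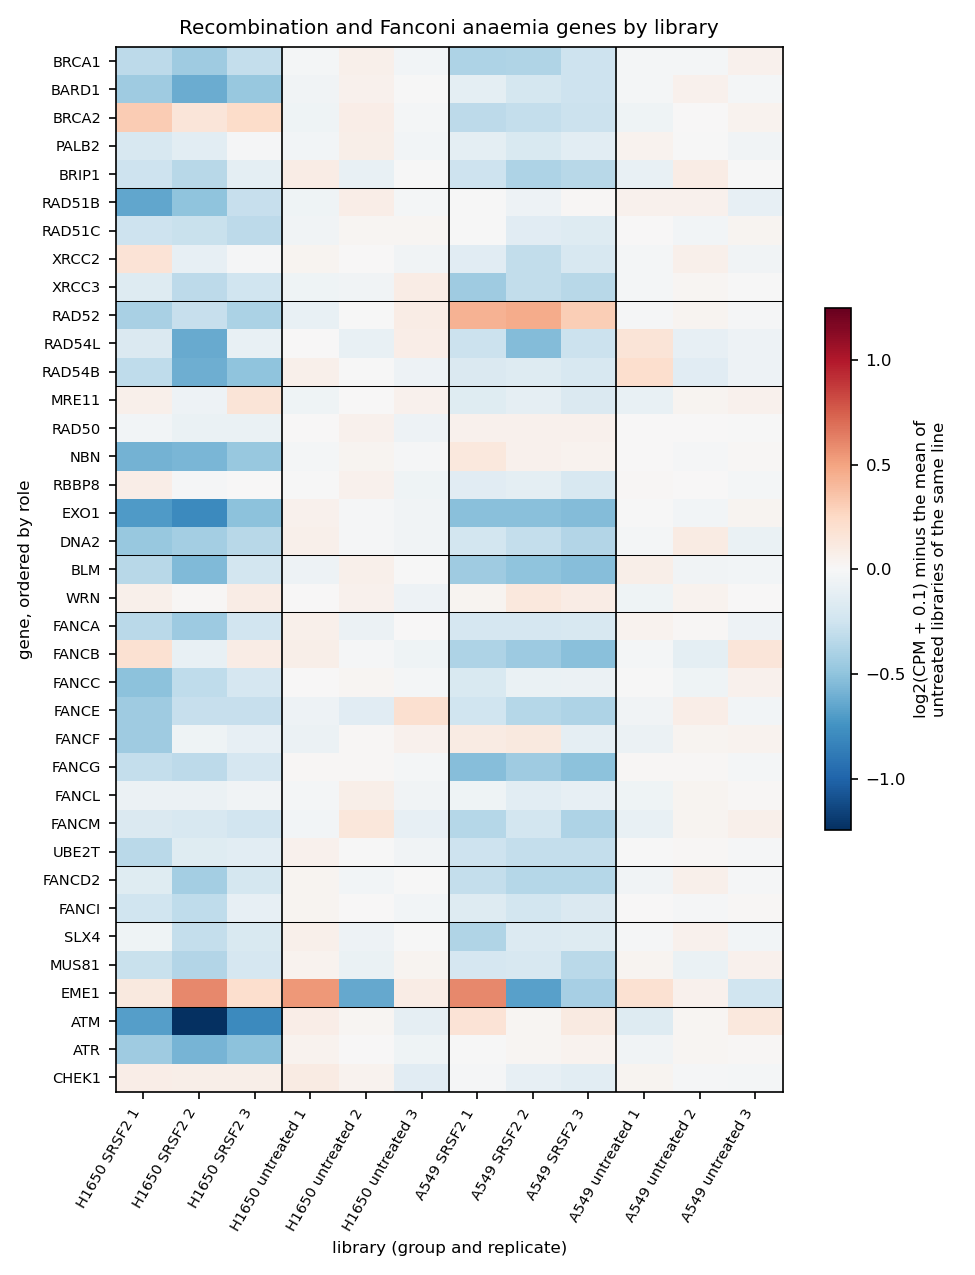
Difference of log2(CPM + 0.1) in each library from the mean of the untreated libraries of the same line, for 37 genes (rows, ordered by role with lines between roles) and 12 libraries (columns). Blue is lower and red higher than untreated cells. Blue prevails in the SRSF2 columns of both lines, BRCA2 is red in the H1650 SRSF2 columns only, RAD52 is red in the A549 SRSF2 columns only, and EME1, at 3 to 20 counts a library, varies within every group.

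Across the lines, 17 genes were lower in SRSF2 cells of both. These were BRCA1, BARD1 and BRIP1, XRCC3, RAD54L, EXO1, DNA2, BLM, the Fanconi core genes FANCA, FANCE, FANCG and FANCM, the E2 gene UBE2T, FANCD2, FANCI, SLX4 and MUS81. A further 7 were called lower in H1650 only and 4 in A549 only, which alone does not show that the lines differ, while BRCA2 and RAD52 were called in opposite directions. PALB2, RAD50, WRN, FANCF, FANCL, EME1 and CHEK1 passed the test in neither line. Of all genes tested, 31.3% were called lower in H1650 and 15.9% in A549. The share of all genes called lower in both lines, or in 1 line only, was not worked out. These counts across the lines therefore have no background to be judged against. Calls that ended when 1 library was left out are given with each role below.

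Promoter windows were examined for up to 4 genes per line, by smallest adjusted p among the genes called. These were EXO1, ATR, ATM and BARD1 in H1650, and EXO1, FANCG, BLM and BRCA1 in A549. NBN, first in that order in H1650, was not among the genes with a window. Of the genes examined, the 4 that held a searched word are printed below, so they were picked by that outcome. Each window runs from 250 bases before to 50 after a RefSeq transcription start (GRCh38.p14), 5′ to 3′ on the strand of the gene. Capitals mark the words searched on both strands: the E2F words TTTCCCGC, TTTCGCGC, TTTGCCGC and TTTGGCGC, the cell cycle homology region TTTGAA, and the CCAAT box CCAAT, which reads ATTGG on the other strand. EXO1 has a window at each of 2 starts, chr1:241847954-241848253 upstream and chr1:241848481-241848780 downstream, on the plus strand. The BLM window is chr15:90717096-90717395 on the plus strand, the BRCA1 window chr17:43125315-43125614 on the minus strand and the ATM window chr11:108222817-108223116 on the plus strand. BRCA1 and ATM each have another window, and for these 2 genes only the window nearest to a principal start in GENCODE 29 is printed. For EXO1 both are printed, the downstream one lying 0 bases and the upstream one 24 bases from a principal start.
EXO1 upstream: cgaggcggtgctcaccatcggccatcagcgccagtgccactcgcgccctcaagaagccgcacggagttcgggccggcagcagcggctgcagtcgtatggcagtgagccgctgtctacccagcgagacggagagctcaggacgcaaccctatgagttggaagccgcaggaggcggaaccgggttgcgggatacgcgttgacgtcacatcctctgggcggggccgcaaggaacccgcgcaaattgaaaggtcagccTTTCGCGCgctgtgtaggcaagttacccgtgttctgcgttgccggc
EXO1 downstream: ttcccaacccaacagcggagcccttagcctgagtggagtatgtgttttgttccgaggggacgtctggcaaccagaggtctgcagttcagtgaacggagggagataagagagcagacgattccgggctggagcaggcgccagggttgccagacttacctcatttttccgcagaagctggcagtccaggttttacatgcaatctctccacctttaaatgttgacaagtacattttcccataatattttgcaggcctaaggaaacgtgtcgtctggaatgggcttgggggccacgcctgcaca
BLM: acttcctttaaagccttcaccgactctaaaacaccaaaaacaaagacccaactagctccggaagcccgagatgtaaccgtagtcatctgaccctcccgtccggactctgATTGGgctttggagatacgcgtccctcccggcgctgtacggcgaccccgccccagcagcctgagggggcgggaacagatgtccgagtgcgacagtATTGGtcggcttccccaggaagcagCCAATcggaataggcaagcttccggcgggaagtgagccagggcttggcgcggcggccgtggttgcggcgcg
BRCA1: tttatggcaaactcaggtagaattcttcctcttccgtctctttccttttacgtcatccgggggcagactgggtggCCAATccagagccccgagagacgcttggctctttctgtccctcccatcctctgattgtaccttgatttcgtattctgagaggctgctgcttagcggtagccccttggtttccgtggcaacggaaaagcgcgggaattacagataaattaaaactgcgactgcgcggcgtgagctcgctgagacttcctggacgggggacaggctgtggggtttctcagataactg
ATM: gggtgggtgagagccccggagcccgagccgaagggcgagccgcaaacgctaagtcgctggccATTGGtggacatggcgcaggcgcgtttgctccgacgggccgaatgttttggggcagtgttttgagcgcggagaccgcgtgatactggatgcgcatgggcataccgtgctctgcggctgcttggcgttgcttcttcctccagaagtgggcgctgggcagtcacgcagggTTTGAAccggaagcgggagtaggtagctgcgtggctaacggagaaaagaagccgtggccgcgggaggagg
The upstream EXO1 window held an E2F word beginning 4 bases after the start, and the downstream one held none of the words. BLM held 3 CCAAT boxes, beginning 141, 46 and 21 bases before the start. The printed BRCA1 window held 1 CCAAT box 175 bases before the start. The printed ATM window held 1 CCAAT box 188 bases and 1 TTTGAA 20 bases before it. The other ATM window held 2 CCAAT boxes, beginning 56 bases before and 37 bases after its start, and the other BRCA1 window held none of the words. The windows of ATR, BARD1 and FANCG, chosen by the same order, held none of these words. Of the 32 genes with a RefSeq window, 5 (15.6%) held an E2F word, 4 (12.5%) the TTTGAA word and 14 (43.8%) a CCAAT box. Over 11242 tested genes with a window the shares were 6.34%, 13.98% and 42.0%. Among 15 such genes called lower in both lines, 3 held an E2F word, 2 the TTTGAA word and 9 a CCAAT box. A match is only a run of letters, and these shares were not tested.

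Among the genes that act on resected ends, BRCA1, BARD1 and BRIP1 were lower in SRSF2 cells of both lines, and BRCA2 went in opposite directions. BRCA1, the ubiquitin ligase partner of BARD1 and a scaffold of recombination, had 51.7, 47.6 and 52.7 CPM in H1650 SRSF2 libraries, against 63.7, 67.6 and 63.1 CPM in untreated H1650 libraries. It had 98.1, 98.3 and 107 CPM in A549 SRSF2 libraries, against 125, 126 and 132 CPM in untreated A549 libraries. In each line all SRSF2 libraries lay below all untreated ones, and the fall was of like size, with log2 fold changes of -0.35 ± 0.05 (SE; adjusted p = 1.4e-07) in H1650 and -0.34 ± 0.05 (adjusted p = 3.37e-07) in A549. The difference of these responses was -0.01 ± 0.07 (adjusted p = 0.897).

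BARD1, the partner that BRCA1 needs for its ligase activity, had 34.3, 30.6 and 33.7 CPM in H1650 SRSF2 libraries, against 45.5, 48.6 and 46.6 CPM in untreated H1650 libraries. It had 31.5, 29.5 and 28.7 CPM in A549 SRSF2 libraries, against 33.7, 35.6 and 33.8 CPM in untreated A549 libraries. The groups did not overlap in either line, and the gap was wider in H1650. The log2 fold change was -0.51 ± 0.06 (adjusted p = 9.04e-10) in H1650 and -0.20 ± 0.06 (adjusted p = 0.00763) in A549, with a difference of -0.31 ± 0.08 (adjusted p = 0.00182). BARD1 thus fell more than its partner in H1650 by these values, a contrast between genes that was not tested.

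BRCA2, a tumour suppressor that binds single-stranded DNA, had 24.6, 21.9 and 23.3 CPM in H1650 SRSF2 libraries, against 19.1, 21.0 and 19.4 CPM in untreated H1650 libraries. It had 31.4, 31.9 and 32.6 CPM in A549 SRSF2 libraries, against 38.0, 39.6 and 40.4 CPM in untreated A549 libraries. All SRSF2 libraries lay above all untreated ones in H1650 and below them in A549. The log2 fold change was 0.23 ± 0.06 (adjusted p = 0.00204) in H1650 and -0.30 ± 0.06 (adjusted p = 0.000118) in A549, and the difference was 0.53 ± 0.09 (adjusted p = 4.09e-06). The rise in H1650 did not pass limma's test on log2(FPKM + 0.1), with 0.11 (adjusted p = 0.0566), while the fall in A549 and the difference did not lose their calls under any alternative run.

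BRIP1, a helicase bound to BRCA1, fell by 0.24 on the log2 scale in H1650 (adjusted p = 0.000566) and by 0.33 in A549 (adjusted p = 0.000104). PALB2, which bridges BRCA1 and BRCA2, had log2 fold changes of -0.11 ± 0.05 (adjusted p = 0.0714) and -0.15 ± 0.06 (adjusted p = 0.0647) in H1650 and A549. Both values lay close to the threshold. Without H1650 SRSF2 replicate 3, PALB2 was called lower in both lines, at -0.17 (adjusted p = 0.0113) in H1650 and -0.15 (adjusted p = 0.048) in A549.

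RAD51B, RAD51C, XRCC2 and XRCC3, which take part in strand exchange, were lower in 3 of 4 cases in H1650 and in 2 of 4 in A549. XRCC3 fell in both lines: it had 33.9, 30.3 and 31.9 CPM in H1650 SRSF2 libraries, against 36.7, 36.8 and 40.5 CPM in untreated H1650 libraries. It had 25.8, 28.3 and 27.5 CPM in A549 SRSF2 libraries, against 34.5, 35.7 and 35.0 CPM in untreated A549 libraries. All SRSF2 libraries were below the untreated ones, with log2 fold changes of -0.25 ± 0.06 (adjusted p = 0.000443) in H1650 and -0.36 ± 0.06 (adjusted p = 1.25e-05) in A549. RAD51B fell by 0.47 in H1650 (adjusted p = 2.24e-05), while its value in A549 was -0.02 ± 0.08 (adjusted p = 0.882), and this difference was called at -0.45 ± 0.12 (adjusted p = 0.00222). RAD51C fell by 0.29 in H1650 (adjusted p = 7.86e-05) and had -0.10 ± 0.05 in A549 (adjusted p = 0.147), with a difference of -0.19 ± 0.08 just short of the threshold (adjusted p = 0.0531). RAD51C was called lower in A549 without A549 SRSF2 replicate 1 (adjusted p = 0.0486), and its difference was called without A549 SRSF2 replicate 3 (adjusted p = 0.0317), untreated H1650 replicate 1 (adjusted p = 0.0479) or H1650 SRSF2 replicate 1 (adjusted p = 0.0427). XRCC2 had 0.02 ± 0.07 in H1650 (adjusted p = 0.81) and fell by 0.22 in A549 (adjusted p = 0.00444), a call that was lost without A549 SRSF2 replicate 2 (adjusted p = 0.0571).

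RAD52, which anneals complementary single strands, was the other gene called in opposite directions. It had 13.4, 14.5 and 13.6 CPM in H1650 SRSF2 libraries, against 16.7, 17.8 and 19.1 CPM in untreated H1650 libraries. It had 27.7, 28.2 and 25.4 CPM in A549 SRSF2 libraries, against 20.2, 21.0 and 20.2 CPM in untreated A549 libraries. Thus SRSF2 libraries were all below untreated ones in H1650 and all above them in A549, the reverse of BRCA2. RAD52 changed by -0.37 ± 0.07 on the log2 scale (adjusted p = 6.21e-05) in H1650 and 0.41 ± 0.07 (adjusted p = 1.58e-05) in A549, with a difference of -0.77 ± 0.10 (adjusted p = 8.66e-08).

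RAD54L and RAD54B are motor proteins that act on chromatin and branched DNA. RAD54B fell by 0.48 in H1650 (adjusted p = 0.000389) and had -0.19 ± 0.10 in A549 (adjusted p = 0.162), and the difference of -0.29 ± 0.15 (adjusted p = 0.12) was called without untreated A549 replicate 1, at -0.41 (adjusted p = 0.0326). RAD54L fell by 0.28 in H1650 (adjusted p = 0.0198) and by 0.37 in A549 (adjusted p = 0.0117), and both calls hung on single libraries. In H1650 the call was lost without SRSF2 replicate 2, at -0.14 (adjusted p = 0.253), or untreated replicate 3 (adjusted p = 0.0846). In A549 it was lost without SRSF2 replicate 2 (adjusted p = 0.106) or untreated replicate 1 (adjusted p = 0.0941).

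Of the resection genes, the nucleases EXO1 and DNA2 were lower in both lines, and the 3 genes of the MRE11, RAD50 and NBN complex did not move together. EXO1, the exonuclease of long-range resection, had 37.3, 35.2 and 42.8 CPM in H1650 SRSF2 libraries, against 63.4, 60.5 and 59.2 CPM in untreated H1650 libraries. It had 70.3, 70.2 and 69.3 CPM in A549 SRSF2 libraries, against 101, 98.7 and 103 CPM in untreated A549 libraries. The groups lay far apart in both lines, with SRSF2 libraries at 0.631 of the untreated level in H1650 and 0.693 in A549. The log2 fold change was -0.66 ± 0.05 (adjusted p = 9.2e-13) in H1650 and -0.53 ± 0.05 (adjusted p = 3.37e-10) in A549. The difference of -0.13 ± 0.07 (adjusted p = 0.14) was called without H1650 SRSF2 replicate 3, at -0.23 (adjusted p = 0.0058). DNA2, a nuclease and helicase that resects beside EXO1, fell by 0.41 in H1650 (adjusted p = 2.44e-07) and by 0.30 in A549 (adjusted p = 7.87e-05).

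NBN, which carries the MRE11 complex to breaks and binds ATM, had 69.2, 70.2 and 75.2 CPM in H1650 SRSF2 libraries, against 103, 107 and 103 CPM in untreated H1650 libraries. It had 105, 99.1 and 98.3 CPM in A549 SRSF2 libraries, against 95.6, 94.7 and 96.5 CPM in untreated A549 libraries. The fall was thus seen in H1650, while A549 SRSF2 libraries lay just above the untreated ones. The log2 fold change was -0.54 ± 0.04 (adjusted p = 4.42e-13) in H1650 and 0.07 ± 0.04 (adjusted p = 0.194) in A549, and the difference was -0.62 ± 0.06 (adjusted p = 2.27e-10). MRE11, the nuclease of the complex, had 0.06 ± 0.06 in H1650 (adjusted p = 0.43) and -0.15 ± 0.06 in A549 (adjusted p = 0.0425). RAD50, its ATPase, had -0.07 ± 0.04 (adjusted p = 0.199) in H1650 and 0.05 ± 0.04 (adjusted p = 0.348) in A549.

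The A549 call of MRE11 was lost when any of 5 libraries was left out: A549 SRSF2 replicate 1 (adjusted p = 0.1), 2 (adjusted p = 0.0625) or 3 (adjusted p = 0.121), or untreated A549 replicate 2 (adjusted p = 0.14) or 3 (adjusted p = 0.177). The RAD50 difference of -0.12 ± 0.06 (adjusted p = 0.105) was called without untreated H1650 replicate 3 (adjusted p = 0.0473). RBBP8, the cofactor that starts resection with MRE11, had 119, 111 and 112 CPM in H1650 SRSF2 libraries, against 112, 117 and 108 CPM in untreated H1650 libraries. It had 48.5, 48.9 and 46.5 CPM in A549 SRSF2 libraries, against 54.0, 53.5 and 52.5 CPM in untreated A549 libraries. The groups overlapped in H1650, with a log2 fold change of 0.02 ± 0.04 (adjusted p = 0.681). They did not overlap in A549, where the change was -0.15 ± 0.05 (adjusted p = 0.0127), a call lost without A549 SRSF2 replicate 3 (adjusted p = 0.0622).

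The RecQ helicases, which unwind recombination intermediates, behaved unlike each other by their own values. BLM, which dissolves double Holliday junctions, had 15.5, 13.5 and 16.8 CPM in H1650 SRSF2 libraries, against 18.9, 20.7 and 19.7 CPM in untreated H1650 libraries. It had 43.4, 41.7 and 40.9 CPM in A549 SRSF2 libraries, against 62.4, 57.3 and 57.8 CPM in untreated A549 libraries. No SRSF2 library reached an untreated one, and the log2 fold change was -0.37 ± 0.07 (adjusted p = 4.05e-05) in H1650 and -0.49 ± 0.06 (adjusted p = 3.32e-08) in A549. WRN, the helicase mutated in Werner syndrome, had 0.06 ± 0.06 (adjusted p = 0.425) in H1650 and 0.09 ± 0.05 (adjusted p = 0.225) in A549.

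The 9 genes of the Fanconi core complex and its E2 enzyme were mostly lower: 6 were called lower in each line, with a median log2 fold change of -0.21 in H1650 and -0.28 in A549. FANCG, a subunit that holds FANCA in the core complex, had 36.4, 35.6 and 38.7 CPM in H1650 SRSF2 libraries, against 45.3, 45.2 and 44.0 CPM in untreated H1650 libraries. It had 43.2, 45.9 and 43.7 CPM in A549 SRSF2 libraries, against 63.3, 63.0 and 61.3 CPM in untreated A549 libraries. Both falls were clear of the library spread, and the one in A549 was deeper, at -0.50 ± 0.05 (adjusted p = 6.41e-10), against -0.28 ± 0.05 (adjusted p = 1.28e-05) in H1650. The difference was 0.22 ± 0.07 (adjusted p = 0.00996). FANCB, a partner of the ligase FANCL in the core complex, had 11.2, 9.14 and 10.4 CPM in H1650 SRSF2 libraries, against 10.3, 9.64 and 9.40 CPM in untreated H1650 libraries. It had 13.2, 12.6 and 11.97 CPM in A549 SRSF2 libraries, against 17.0, 15.9 and 19.1 CPM in untreated A549 libraries. The groups overlapped in H1650, at 0.07 ± 0.09 (adjusted p = 0.561), and were separate in A549, at -0.46 ± 0.09 (adjusted p = 7.68e-05), with a difference of 0.53 ± 0.13 (adjusted p = 0.000867).

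FANCA, a core subunit that pairs with FANCG, fell by 0.34 in H1650 (adjusted p = 5.03e-07) and by 0.21 in A549 (adjusted p = 0.00145). Its difference of -0.13 ± 0.07 (adjusted p = 0.125) was called without H1650 SRSF2 replicate 3, at -0.19 (adjusted p = 0.0224). FANCC, the core subunit that pairs with FANCE, fell by 0.34 in H1650 (adjusted p = 1.88e-05) and had -0.11 ± 0.06 in A549 (adjusted p = 0.145). FANCE, which joins the core complex to FANCD2, fell by 0.35 in H1650 (adjusted p = 0.00179) and by 0.33 in A549 (adjusted p = 0.018). The A549 call of FANCE was lost without A549 SRSF2 replicate 2 (adjusted p = 0.0629) or 3 (adjusted p = 0.0609), or untreated A549 replicate 2 (adjusted p = 0.0814). FANCM, the DNA translocase that anchors the complex at stalled forks, fell by 0.21 in H1650 (adjusted p = 0.0197) and by 0.32 in A549 (adjusted p = 0.000433). The H1650 call of FANCM was lost without untreated H1650 replicate 2, at -0.14 (adjusted p = 0.151), or H1650 SRSF2 replicate 3 (adjusted p = 0.0524). FANCL, the ubiquitin ligase subunit, had -0.07 ± 0.05 (adjusted p = 0.267) in H1650 and -0.10 ± 0.05 (adjusted p = 0.11) in A549. FANCF, an adaptor subunit of few counts, had -0.19 ± 0.13 (adjusted p = 0.199) in H1650 and 0.05 ± 0.10 (adjusted p = 0.768) in A549.

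The E2 enzyme and the substrates of the ubiquitination step were lower in both lines, while the ligase subunit FANCL was called in neither. UBE2T, the E2 enzyme, fell by 0.20 in H1650 (adjusted p = 0.00232) and by 0.28 in A549 (adjusted p = 3.46e-05). FANCD2, which is ubiquitinated and clamps onto DNA, fell by 0.26 in H1650 (adjusted p = 0.000183) and by 0.34 in A549 (adjusted p = 1.45e-05). FANCI, its partner, fell by 0.22 in H1650 (adjusted p = 4.14e-05) and by 0.19 in A549 (adjusted p = 0.000598). The differences between the lines for these genes were 0.08 ± 0.08 (adjusted p = 0.375) for UBE2T, 0.08 ± 0.08 (adjusted p = 0.463) for FANCD2 and -0.03 ± 0.06 (adjusted p = 0.71) for FANCI.

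Among the structure-specific nucleases, MUS81, which cuts branched DNA, fell by 0.28 in H1650 (adjusted p = 8.77e-05) and by 0.25 in A549 (adjusted p = 0.00335). SLX4, the scaffold of several nucleases, fell by 0.18 in H1650 (adjusted p = 0.0187) and by 0.23 in A549 (adjusted p = 0.00821). The H1650 call of SLX4 was lost without H1650 SRSF2 replicate 2 (adjusted p = 0.134) or untreated H1650 replicate 1 (adjusted p = 0.0945), and its A549 call without A549 SRSF2 replicate 1 (adjusted p = 0.0888). EME1, the partner of MUS81, was hardly counted: it had 6, 10 and 8 counts in H1650 SRSF2 libraries and 11, 3 and 7 counts in untreated H1650 libraries. It had 20, 8 and 9 counts in A549 SRSF2 libraries and 17, 15 and 12 counts in untreated A549 libraries. At these counts no response of EME1 was detectable, with log2 fold changes of 0.33 ± 0.53 (adjusted p = 0.606) in H1650 and -0.11 ± 0.42 (adjusted p = 0.878) in A549.

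The damage kinases ATM and ATR were lower in H1650 SRSF2 cells, and their A549 values did not pass the test. ATM had 11.03, 7.46 and 10.2 CPM in H1650 SRSF2 libraries, against 19.0, 18.2 and 16.5 CPM in untreated H1650 libraries. It had 33.9, 30.7 and 32.7 CPM in A549 SRSF2 libraries, against 27.0, 30.7 and 33.0 CPM in untreated A549 libraries. Its H1650 groups were far apart, with SRSF2 libraries at 0.536 of the untreated level, and its A549 groups overlapped. It changed by -0.90 ± 0.10 (adjusted p = 8.94e-10) in H1650 on the log2 scale, the largest fall among the 37 genes there, and 0.10 ± 0.08 (adjusted p = 0.383) in A549. The difference was -0.9997 ± 0.13 (adjusted p = 5.70e-08), the largest among the 37 genes.

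ATR had 39.4, 35.8 and 37.6 CPM in H1650 SRSF2 libraries, against 55.3, 53.6 and 51.7 CPM in untreated H1650 libraries. It had 71.6, 73.3 and 74.0 CPM in A549 SRSF2 libraries, against 69.7, 73.4 and 72.8 CPM in untreated A549 libraries. Like ATM, ATR was separate between the groups in H1650 and overlapped in A549. Its log2 fold change was -0.51 ± 0.05 (adjusted p = 5.71e-11) in H1650 and 0.02 ± 0.05 (adjusted p = 0.782) in A549, and the difference was -0.53 ± 0.07 (adjusted p = 5.64e-08). CHEK1, the kinase that ATR activates, had 0.07 ± 0.05 (adjusted p = 0.201) in H1650 and -0.08 ± 0.05 (adjusted p = 0.257) in A549. Its difference of 0.16 ± 0.07 (adjusted p = 0.0786) was called without A549 SRSF2 replicate 1 (adjusted p = 0.0476) or untreated H1650 replicate 1 (adjusted p = 0.026).

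**Figure D2:**
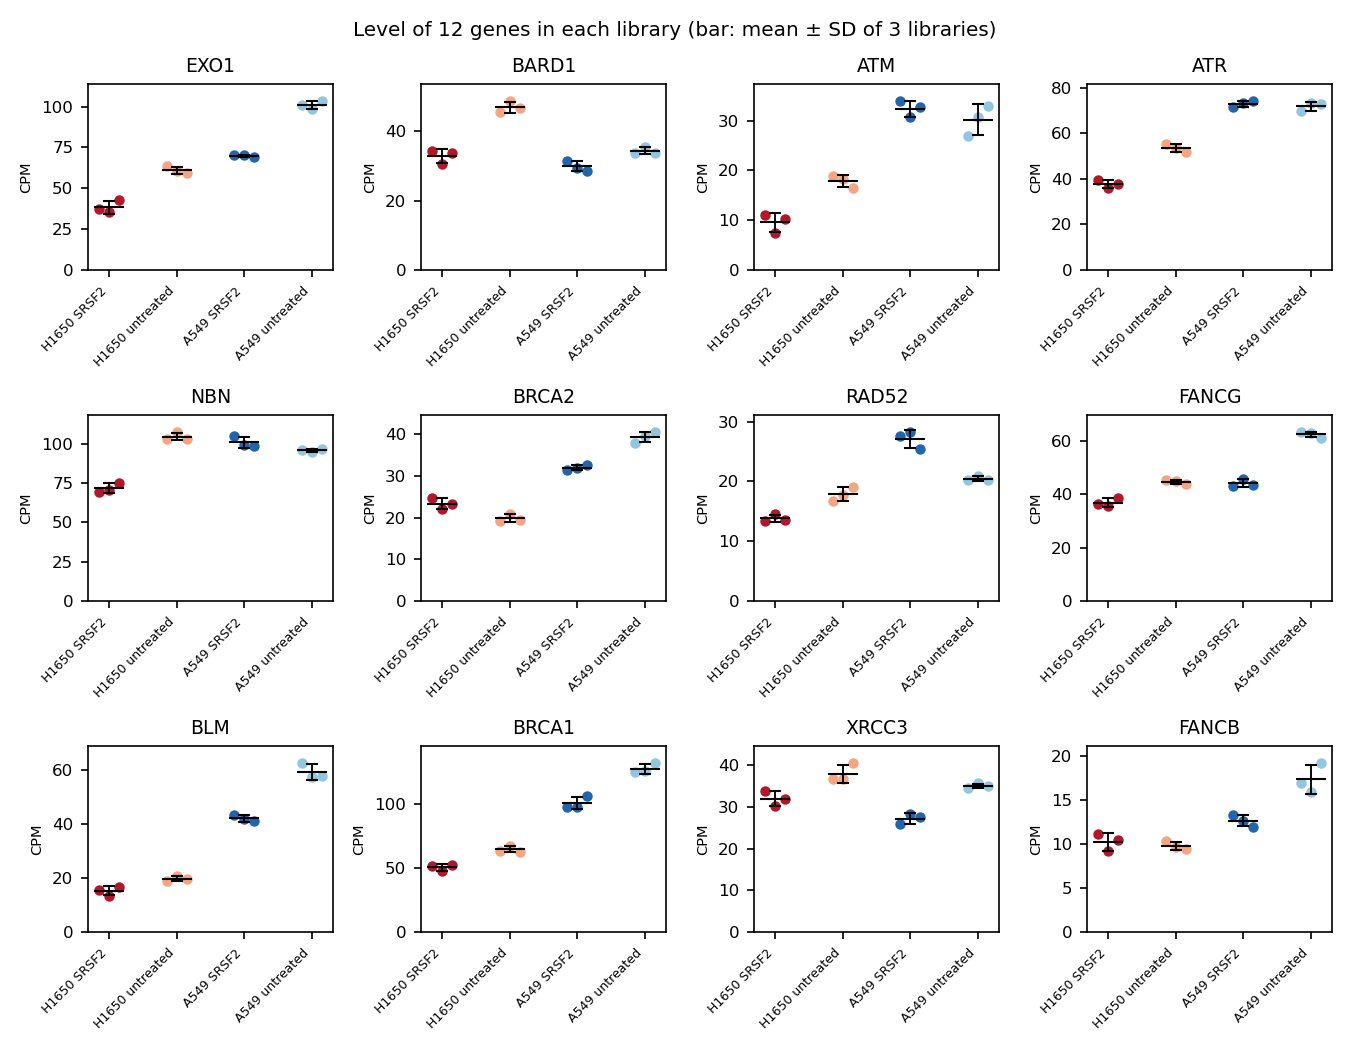
TMM-corrected CPM of 12 genes in each library (points), with the mean ± SD of the 3 libraries of a group (bars). H1650 SRSF2 points lie below untreated H1650 points for EXO1, ATM, ATR and NBN, while the A549 groups of ATM and ATR overlap, and BRCA2 and RAD52 are shifted in opposite directions in the 2 lines.

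The response was set against the line in 1 test per gene, as the H1650 response minus the A549 response. Of the 37 genes, 13 differed, 6 with a higher and 7 with a lower response in H1650, so that 35.1% were called, against 47.5% of all genes tested. Of all genes, 23.5% were called higher and 24% lower. The median difference of the 37 genes was -0.013, where that of all genes was -0.0063. The genes with a lower response in H1650 were ATM, RAD52, NBN, ATR, RAD51B, BARD1 and FANCC, with differences of -0.9997 to -0.22. Those with a higher response in H1650 were BRCA2, FANCB, XRCC2, FANCG, MRE11 and RBBP8, with differences of 0.53 to 0.17. Among the remaining 24 genes the differences did not pass the test, which does not show that the lines responded alike.

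Several of these differences lay close to the threshold, and the count of 6 was 3 to 6 when each library was left out in turn. Without untreated A549 replicate 2, or without H1650 SRSF2 replicate 1, 3 genes were called higher in H1650, the calls of XRCC2 (adjusted p = 0.0966 and 0.142), MRE11 (adjusted p = 0.101 and 0.0532) and RBBP8 (adjusted p = 0.0539 and 0.0653) being lost. The difference of XRCC2, 0.24 ± 0.09 (adjusted p = 0.0289), was also lost without A549 SRSF2 replicate 2 (adjusted p = 0.107) or untreated H1650 replicate 3 (adjusted p = 0.0744). That of RBBP8, 0.17 ± 0.06 (adjusted p = 0.0239), was also lost without A549 SRSF2 replicate 3 (adjusted p = 0.072), untreated A549 replicate 1 (adjusted p = 0.0576) or untreated H1650 replicate 3 (adjusted p = 0.0765). That of FANCC, -0.22 ± 0.09 (adjusted p = 0.0324), was lost without H1650 SRSF2 replicate 1 (adjusted p = 0.132), untreated H1650 replicate 1 (adjusted p = 0.0515) or 2 (adjusted p = 0.0617), A549 SRSF2 replicate 2 (adjusted p = 0.0744) or 3 (adjusted p = 0.0719), or untreated A549 replicate 1 (adjusted p = 0.0514) or 2 (adjusted p = 0.0778). That of MRE11, 0.21 ± 0.08 (adjusted p = 0.0399), was also lost without H1650 SRSF2 replicate 3 (adjusted p = 0.162), untreated H1650 replicate 1 (adjusted p = 0.114) or 2 (adjusted p = 0.0662), A549 SRSF2 replicate 1 (adjusted p = 0.0694) or 3 (adjusted p = 0.0848), or untreated A549 replicate 3 (adjusted p = 0.113). The differences of ATM, ATR, NBN, RAD52, BARD1, RAD51B, BRCA2, FANCB and FANCG did not lose their calls when any 1 library was left out.

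**Figure D3:**
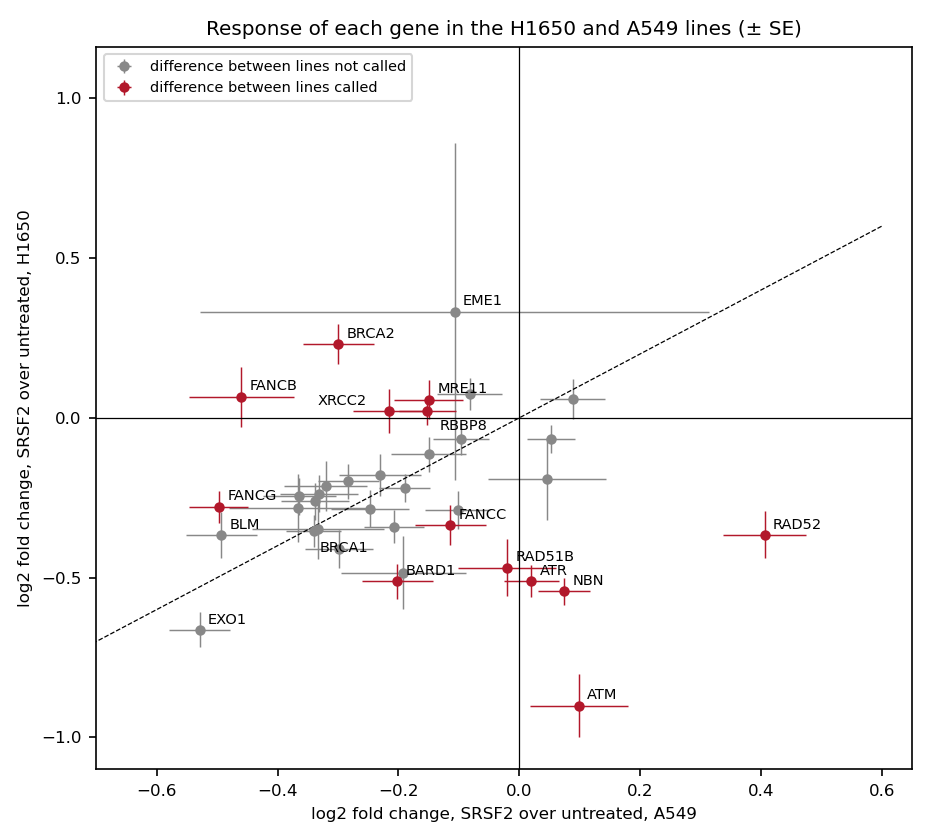
Log2 fold change (SRSF2 over untreated) in H1650 against that in A549 for 37 genes (points), with SE bars and a dashed line of equal response. Red points are the 13 genes whose difference between the lines was called. ATM, NBN, ATR and RAD51B lie near 0 in A549 and well below 0 in H1650, and BRCA2 and RAD52 lie in opposite corners.

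Some of these genes share exon positions with neighbours, which bears on what their counts hold. Of the 37 genes, 14 overlap another gene of the count table, 12 of them one on the other strand. Whether counting used strand is not stated, so reads of such partners cannot be told apart. ATM overlaps NPAT, which fell by 0.21 in H1650 (adjusted p = 0.00321), and C11orf65, which fell by 0.89 (adjusted p = 0.0119). FANCL overlaps VRK2, which rose by 0.73 in H1650 (adjusted p = 3.53e-15), MRE11 overlaps ANKRD49, which rose by 0.69 there (adjusted p = 5.98e-09), and EME1 overlaps LRRC59, which rose by 0.50 there (adjusted p = 3.52e-14). FANCA overlaps ZNF276, which fell by 0.30 in H1650 (adjusted p = 0.000229), XRCC3 overlaps KLC1, which fell by 0.28 (adjusted p = 0.000227), and RAD54L overlaps LRRC41, which fell by 0.22 (adjusted p = 6.64e-05). In A549, STT3A, which overlaps CHEK1 on the same strand, rose by 0.36 (adjusted p = 9.43e-10). VRK2 rose by 0.25 (adjusted p = 4.56e-05) and LRRC59 by 0.23 (adjusted p = 4.48e-06) there, while NPAT, C11orf65, ZNF276, KLC1 and LRRC41 did not pass the test. Values of the overlapped genes are therefore uncertain to the extent that their partners were counted with them, and the part of the partners was not tested.

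Without SRSF2 over-expression, the lines differed in nearly all of these genes. In untreated H1650 cells, 26 of 37 genes were lower and 9 higher than in untreated A549 cells, so that 94.6% were called, against 82.4% of all genes tested. Of all genes, 42.3% were called lower and 40.1% higher. The median log2 fold change of the 37 genes, untreated H1650 over untreated A549, was -0.43, where that of all genes was -0.036. XRCC3, at 0.12 ± 0.06 (adjusted p = 0.0648), and SLX4, at 0.11 ± 0.07 (adjusted p = 0.132), did not pass the test. XRCC3 was called higher without untreated H1650 replicate 1 (adjusted p = 0.0409) or 2 (adjusted p = 0.0392), or H1650 SRSF2 replicate 1 (adjusted p = 0.0393), 2 (adjusted p = 0.0454) or 3 (adjusted p = 0.0461).

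The genes lower in untreated H1650 included BLM, at 18.9, 20.7 and 19.7 CPM in H1650 libraries, against 62.4, 57.3 and 57.8 CPM in A549 libraries. Its log2 fold change of -1.58 ± 0.06 (adjusted p = 3.09e-22) put H1650 at 0.334 of the A549 level, the lowest ratio among the 37 genes. RAD50 had 54.3, 56.3 and 51.9 CPM in untreated H1650, against 124, 124 and 123 CPM in untreated A549 libraries (log2 fold change -1.19 ± 0.04, adjusted p = 1.04e-23). XRCC2 had 22.1, 21.8 and 21.0 CPM in untreated H1650, against 50.6, 53.8 and 49.8 CPM in untreated A549 libraries (-1.25 ± 0.06, adjusted p = 2.85e-19). These genes were separated by wide gaps, as was FANCL. FANCL had 39.1, 41.9 and 38.5 CPM in untreated H1650, against 73.3, 78.0 and 76.6 CPM in untreated A549 libraries (-0.93 ± 0.05, adjusted p = 6.75e-19). BRCA1 and BRCA2 were lower in untreated H1650 by 0.98 and 0.99 on the log2 scale (-0.98 ± 0.05, adjusted p = 6.73e-20, and -0.99 ± 0.06, adjusted p = 8.74e-17).

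Higher in untreated H1650 were RBBP8, PALB2, FANCE, BRIP1, MUS81, CHEK1, BARD1, RAD54L and NBN. RBBP8 had 112, 117 and 108 CPM in untreated H1650, against 54.0, 53.5 and 52.5 CPM in untreated A549 libraries, a ratio of 2.10 (log2 fold change 1.07 ± 0.04, adjusted p = 1.39e-21). PALB2 had 46.3, 49.7 and 46.3 CPM in untreated H1650, against 26.5, 25.6 and 24.9 CPM in untreated A549 libraries (0.89 ± 0.06, adjusted p = 4.90e-16). BRIP1 had 69.7, 61.1 and 65.1 CPM in untreated H1650, against 37.0, 42.3 and 39.5 CPM in untreated A549 libraries (0.72 ± 0.06, adjusted p = 2.84e-13). BRCA1 and its partners PALB2, BRIP1 and BARD1 thus differed between the lines in opposite directions. MUS81 had 44.0, 40.1 and 43.7 CPM in untreated H1650, against 27.8, 25.6 and 28.2 CPM in untreated A549 libraries (0.65 ± 0.06, adjusted p = 6.99e-12). CHEK1 had 81.0, 77.7 and 68.6 CPM in untreated H1650, against 55.7, 54.0 and 53.5 CPM in untreated A549 libraries (0.48 ± 0.05, adjusted p = 2.13e-10). The groups did not overlap for any of these 5 genes, but the genes were picked by their small adjusted p in this same comparison. Among the 37 genes only SLX4 overlapped between the untreated lines. The share over all genes was not worked out, so this has no background to be judged against. In this comparison 82.4% of all genes tested were called.

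The calls of NBN, at 0.13 ± 0.04 (adjusted p = 0.00679), and RAD54L, at 0.30 ± 0.10 (adjusted p = 0.00907), were lost with upper quartile scaling (adjusted p = 0.526 and 0.0722). RAD52 was lower in untreated H1650 at -0.20 ± 0.07 (adjusted p = 0.0106), a call lost without untreated A549 replicate 2 (adjusted p = 0.0535) or untreated H1650 replicate 1 (adjusted p = 0.0916). EME1 was lower at -1.13 ± 0.47 (adjusted p = 0.0266), a call lost without any of 4 untreated libraries: A549 replicate 1 (-1.01, adjusted p = 0.0854) or 2 (-1.097, adjusted p = 0.059), or H1650 replicate 2 (-0.78, adjusted p = 0.147) or 3 (-1.13, adjusted p = 0.0575).

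Compared per length (CPM per kilobase of merged exons), the most abundant of these mRNAs in untreated H1650 were RBBP8 at 22.0 ± 0.852, UBE2T at 20.8 ± 0.666 and FANCI at 18.0 ± 0.479 (SD, 3 libraries), and in untreated A549 UBE2T at 39.6 ± 0.441, FANCL at 31.5 ± 1.00 and FANCI at 27.9 ± 0.302. In untreated H1650, RBBP8 and UBE2T did not stand apart by more than the sum of their SDs. The lowest were EME1, at 0.0694 ± 0.0384 in untreated H1650 and 0.155 ± 0.0284 in untreated A549, and ATM, at 0.746 ± 0.052 in untreated H1650 and 1.26 ± 0.128 in untreated A549. Levels per length depend on the annotated exons, and ATM has 23972 merged exon bases in GENCODE 29.

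**Figure D4:**
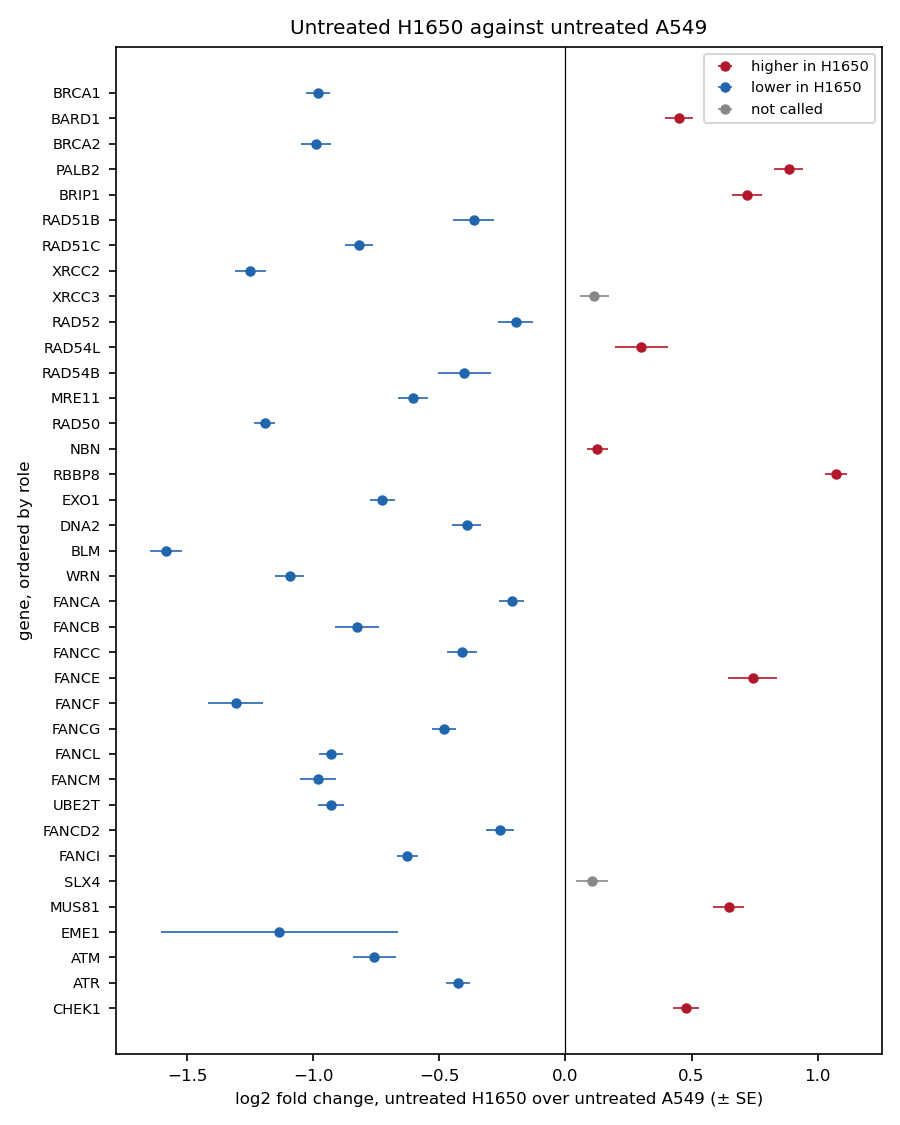
Log2 fold change of untreated H1650 over untreated A549 cells for 37 genes ordered by role (points, with SE bars). Blue genes were called lower in H1650 (26), red ones higher (9) and grey ones were not called (2). BLM lies lowest at -1.58 and RBBP8 highest at 1.07.

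Other genes of the same pathways were counted in the same way. Of 36 tested partners outside the list, 13 were higher, 9 lower and 14 not called in H1650, with a median log2 fold change of 0.0080, so that 61.1% were called, against 62.3% of all genes tested. In A549, 2 were higher, 18 lower and 16 not called, with a median of -0.17, so that 55.6% were called, against 32.3% of all genes tested. The partners were not tested against the 37 genes. In H1650 the partners with the smallest adjusted p were WDR48, a cofactor of the deubiquitinase of FANCD2, at 55.0 ± 1.65 CPM in SRSF2 against 29.4 ± 1.80 CPM in untreated libraries (SD, 3 libraries each; log2 fold change 0.90 ± 0.05), and RPA2, a subunit of the protein that coats single-stranded DNA, at 60.2 ± 2.90 against 33.1 ± 3.69 CPM in untreated libraries (0.86 ± 0.07). They were followed by ZSWIM7, a recombination factor, at -0.84 ± 0.08, and PSMC3IP, a cofactor of strand exchange, at 0.65 ± 0.06. In A549 the leading partner was RAD51AP1, a factor that stimulates strand exchange, at 32.7 ± 1.27 CPM in SRSF2 against 43.2 ± 0.430 CPM in untreated libraries (-0.40 ± 0.06), while the same gene had 0.37 ± 0.05 in H1650.

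The DNA replication and mitosis lists show the proliferation genes beside the repair genes, many of which are transcribed mainly in S and G2 phases. Of 37 replication genes, 36 were lower and 1 not called in A549, with a median of -0.29, and their summed level was 3918 to 3987 CPM in SRSF2 against 4904 to 4979.6 CPM in untreated libraries. In H1650, 12 were higher, 17 lower and 8 not called, with a median of -0.059, and the sum was 3701 to 3795 CPM in SRSF2 against 3809.6 to 3842 CPM in untreated libraries. Of 30 genes of G2 phase and mitosis, 25 were lower, 1 higher and 4 not called in H1650 (median -0.45), and 23 were lower and 7 not called in A549 (median -0.22). Thus 78.4% of the replication and 86.7% of the mitosis list were called in H1650, against 62.3% of all genes tested. In A549, 97.3% and 76.7% were called, against 32.3% of all genes tested. Of all genes, 31.3% were called lower and 31% higher in H1650, and 15.9% lower and 16.4% higher in A549. CENPF, a kinetochore protein of G2 and mitosis, was at 89.4 ± 4.08 CPM in H1650 SRSF2 against 214 ± 19.2 CPM in untreated H1650 libraries (-1.26 ± 0.05). MKI67, the proliferation marker Ki-67, was at 590.0 ± 5.07 CPM in A549 SRSF2 against 776 ± 21.5 CPM in untreated A549 libraries (-0.39 ± 0.05). The part of these proliferation genes in the lower repair genes was not tested.

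**Figure D5:**
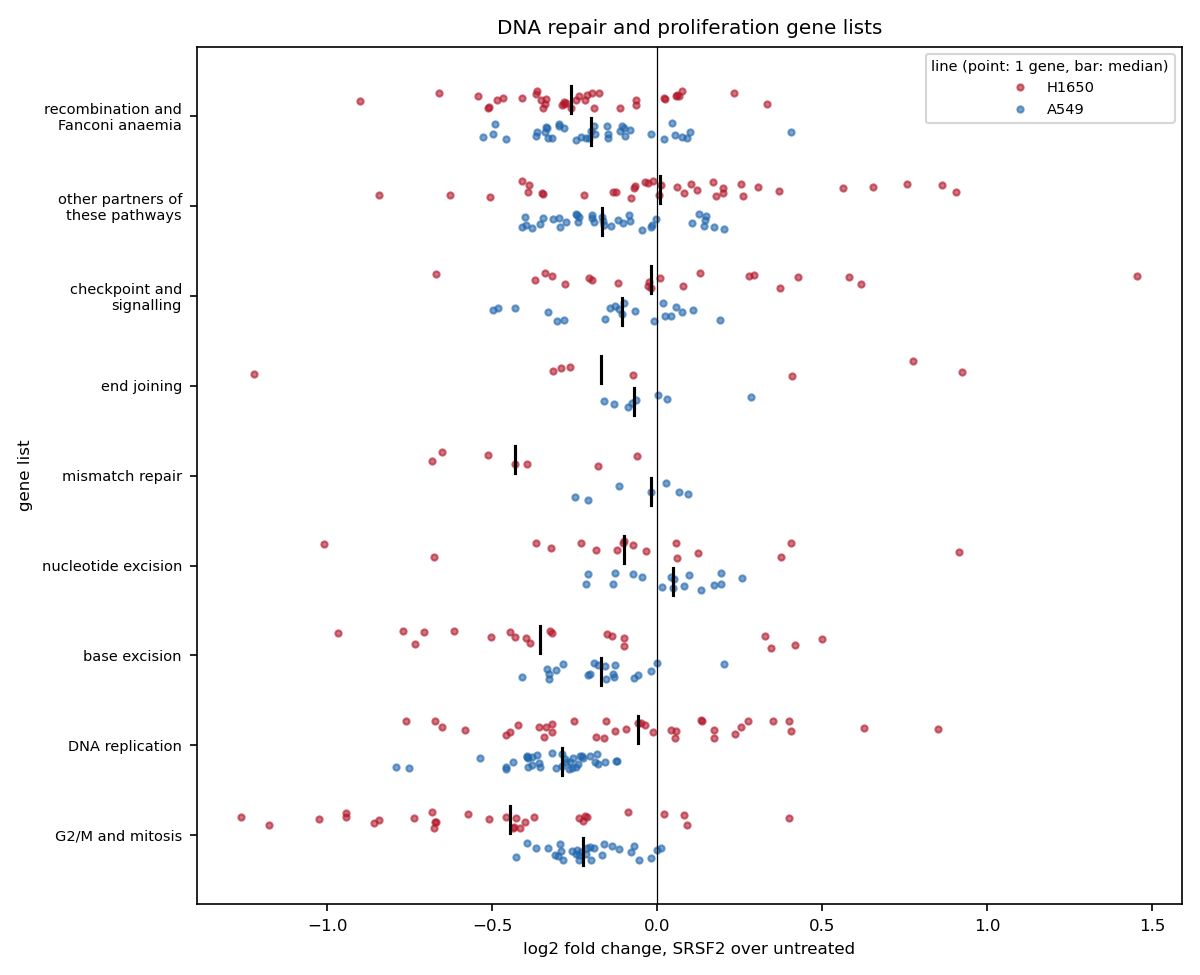
Log2 fold change (SRSF2 over untreated) of each tested gene (points) in 9 lists, H1650 in red above A549 in blue, with the median of each list as a black bar. The recombination and Fanconi anaemia genes have medians of -0.26 and -0.20, their other partners 0.0080 and -0.17, and DNA replication genes -0.059 and -0.29 in H1650 and A549.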

How the data were processed

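Polyadenylated RNA of 12 libraries was sequenced, 3 in each of 4 groups taken from the labels. The authors deposited raw counts per gene. The submitters' processing notes name GRCh38, featureCounts 2.0.0, STAR 2.7.7a and fastp 0.20.1, while the release of the annotation and the use of strand are not given in the sources used here. The authors also deposited FPKM values of the same counts, in which the length of a gene was its whole span with introns for 71.4% of the IDs in GENCODE 29. Those FPKM were therefore used in alternatives only. IDs were given symbols from a gene name table (16076) or GENCODE 29 (63), and 460 have none.

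Counts were fitted with edgeR 4.0.16 in R 4.3.3, with filterByExpr (608 genes removed), TMM scaling, a mean for each group and 8 residual degrees of freedom. Benjamini-Hochberg adjustment ran over 15991 genes, with calls at adjusted p under 0.05. CPM use TMM-corrected totals, except for cell type markers, and SEs were worked back from the fold change and F statistic, so they are approximate. Every listed gene could be named. Library values were printed for up to 5 genes per direction and comparison by adjusted p, and for those called in opposite directions, and other lists gave up to 4 genes per comparison. The genes and lists were chosen with earlier results of these data known. The fit was also run on simulated counts, where few genes changed and both lines had the same starting levels. In the data 62.3% of genes tested were called in H1650, so that run does not show how the fit performs here. Promoters are RefSeq windows. Alternatives were other scalings and filters, DESeq2 1.42.0, limma 3.58.1 on log2(FPKM + 1) or log2(FPKM + 0.1), a replicate block, only the groups compared, and leaving out each library.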

Additional observations from a re-analysis of the deposited data

Results flagged for a closer look

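For 13 genes the H1650 response minus the A549 response passed edgeR's quasi-likelihood test of the difference itself, with adjusted p from 2.27e-10 to 0.0399. On the log2 scale the response was lower in H1650 for ATM (-0.9997), RAD52 (-0.77), NBN (-0.62), ATR (-0.53), RAD51B (-0.45), BARD1 (-0.31) and FANCC (-0.22). It was higher in H1650 for BRCA2 (0.53), FANCB (0.53), XRCC2 (0.24), FANCG (0.22), MRE11 (0.21) and RBBP8 (0.17). Among all genes tested, 47.5% were called for this difference. BRCA2 and RAD52 were called in opposite directions in the lines, FANCG and BARD1 were lower in both to unequal extents, and the other 9 were called in 1 line. The calls of XRCC2, MRE11, RBBP8 and FANCC were lost when single libraries were left out.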

How the results depend on the processing

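No gene of the 37 changed direction with a call under any alternative run. With limma on log2(FPKM + 1), filtered or not, or log2(FPKM + 0.1), the number called higher in H1650 was 0 in place of 1, BRCA2 being lost. With limma on log2(FPKM + 0.1) the number with a higher response in H1650 than A549 was 3 in place of 6. Leaving out each library in turn gave 3 to 6 higher and 6 to 9 lower for that difference, 23 to 25 lower in H1650, 18 to 23 lower in A549, and 24 to 26 lower and 9 to 10 higher between untreated lines. Upper quartile scaling moved the median of all genes between the untreated lines to -0.13. Same-numbered libraries did not deviate together: their residuals correlated at -0.027 to 0.045, and the number was not used for pairing. The fit with a replicate block gave 25 lower and 1 higher in H1650 and 9919 called genes in all there. With at least 1 CPM in 3 libraries, EME1 had no value. EME1 had only 3 to 20 counts a library, and the reason was not tested.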

Other observations

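Genes of other repair pathways were counted in the same way, where 62.3% of all genes tested were called in H1650 and 32.3% in A549, and no difference between lists or lines was tested for these counts. Of 8 tested end joining genes, 3 were higher and 4 lower in H1650, and 1 was higher and 1 lower in A549. In H1650 the lower ones included PRKDC, the DNA-dependent protein kinase, at 226 ± 16.5 CPM in SRSF2 against 527 ± 4.40 CPM in untreated libraries (SD, 3 libraries each; log2 fold change -1.22 ± 0.04, SE). LIG4, the ligase of end joining, rose there at 0.92 ± 0.07 and rose in A549 at 0.28 ± 0.07. Of 7 mismatch repair genes, 6 were lower in H1650 (median -0.43) and 2 in A549 (median -0.020), led in H1650 by PMS2 at -0.65 ± 0.06. Of 20 base excision genes, 12 were lower and 4 higher in H1650, and 13 were lower in A549. PARP1, the poly(ADP-ribose) polymerase that senses strand breaks, fell at -0.73 ± 0.04 in H1650 and -0.21 ± 0.04 in A549, and the ligase LIG1 at -0.62 ± 0.04 and -0.41 ± 0.04. Of 17 nucleotide excision genes, 4 were higher and 5 lower in H1650, and 5 higher and 1 lower in A549.

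Of 21 checkpoint genes, 7 were higher, 8 lower and 6 not called in H1650 (median -0.020), and 1 was higher, 7 lower and 13 not called in A549 (median -0.11). CHEK2, the kinase that ATM activates, rose at 1.45 ± 0.06 in H1650, at 97.8 ± 4.98 CPM in SRSF2 against 35.7 ± 2.32 CPM in untreated libraries, while ETAA1, an activator of ATR, fell there at -0.67 ± 0.06. In A549 the genes with the smallest adjusted p were H2AX, the histone phosphorylated at breaks, at -0.48 ± 0.04, and CLSPN, the adaptor of CHEK1 activation, at -0.50 ± 0.05. Of 20 tested genes in a list of E2F and p53 regulators, 5 were higher, 8 lower and 7 not called in H1650. In A549, 2 were higher, 9 lower and 9 not called. Thus 65% and 55% were called, against 62.3% and 32.3% of all genes tested. Within this list, whose genes went both ways, the p53 targets MDM2 and CDKN1A rose in both lines. Targets of p53 were not tested as a set. MDM2 rose at 1.252 ± 0.06 in H1650 and 0.71 ± 0.06 in A549, and CDKN1A at 0.61 ± 0.03 and 0.37 ± 0.04. E2F1, a transcription factor of S-phase genes, fell at -0.75 ± 0.05 in A549. Which of these moved with the recombination genes was not tested.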
